A study of Danio rerio with 6 samples.

Results

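The 3 wildtype libraries of cells sorted from tg(myl7::gfp) zebrafish embryos at 24 hours post fertilization (hpf) are described here on their own. They were taken by their label for the experimental group, which reads Wildtype, and they are 3 of the 6 libraries of the series; the other 3, from Gata4 morphants, were not used here. All embryos carried a transgene in which the promoter of myl7, a cardiac myosin light chain gene, drives green fluorescent protein. Pools of about 200 embryos were dissociated with an enzyme, fluorescent cells were collected by a cell sorter, and 100 ng of total RNA went into each library. The labels call the product cardiomyocytes, but they give neither the gate nor a purity. They also do not say whether the wildtype embryos received an injection, or whether the pools came from separate clutches, so the spread between replicates may be technical. The mRNA-Seq kit was used for replicates 1 and 2 and the TruSeq kit for replicate 3, so for replicate 3 the kit and the library cannot be told apart. Replicate numbers follow the order of deposit.

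The zebrafish heart at this stage is a beating linear tube, with an outer layer of cardiomyocytes around an inner endocardium. Cardiomyocytes are known by their sarcomeres, the repeating arrays of myosin thick filaments and actin thin filaments, and by the calcium stores and pumps that drive each contraction. The first wave of blood formation is under way at the same time: primitive macrophages and neutrophils arise near the heart field and wander over the yolk, and primitive red cells form in the trunk. The myl7 promoter is used as a marker of heart muscle, so the question was which transcripts the sorted cells held, in which order, and how the levels of heart genes compared with those of genes that mark other cells.

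The libraries held 15302189, 21119399 and 19009161 counts in replicates 1, 2 and 3. Levels are given in TPM, the counts of a gene divided by its length and scaled to the same sum in each library, with the mean and the SD over the 3 libraries. At the median gene length a single count was worth 0.0584, 0.0386 and 0.0421 TPM in replicates 1, 2 and 3, so levels well under 1 TPM rest on few counts. Of 27456 genes in the table, 14388 (52.4%) had at least 1 TPM in every library, 6880 at least 10 TPM, 1185 (4.32%) at least 100 TPM and 122 at least 1000 TPM. The median gene lay at 2.14 TPM over the whole table, and at 12.5 TPM among the 14388. Across those genes log2 TPM correlated with Pearson's r = 0.957 between replicates 1 and 2, 0.942 between 1 and 3 and 0.966 between 2 and 3, a description over genes, which are not independent replicates. The chi-square between libraries was 50.2 to 78.8 per gene, above counting noise, so no pair was treated as 1 library deposited again. The median coefficient of variation of a gene over the 3 libraries was 0.241.

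The top of the ranking was held by genes of translation, respiration and the actin cytoskeleton. The highest gene by TPM was tmsb4x, which encodes the actin monomer binding peptide thymosin beta 4, with 19197, 24581 and 15135 TPM in replicates 1, 2 and 3. MT-CO1, a mitochondrially encoded subunit of cytochrome oxidase, followed with 13489 ± 361 TPM (SD, n = 3). Of the first 30 genes, 9 encoded ribosomal proteins, 6 were mitochondrially encoded, 6 had no symbol and 2 were members of leukocyte lists. Those were COTL1, a coactosin-like protein that binds actin, at rank 18 and lyz, the lysozyme gene of myeloid cells, at rank 20. At rank 17 stood mfap4.11, of a family used as macrophage markers, which the lists as matched left out. No cardiomyocyte sarcomere gene was among the first 50 by TPM, and the first was cmlc1, a cardiac myosin light chain gene, at rank 63. The 10 highest genes took 9.60%, 11.1% and 9.27% of all TPM in replicates 1, 2 and 3, and the 1000 highest took 66.1%, 71.1% and 73.4%. Order by TPM depends on the gene lengths that the authors used: actb2, a cytoplasmic actin gene, was at rank 7 by TPM and at rank 1 by CPM, counts scaled to the library total with no length scaling. The implied length of actb2 was 7965 bases against a RefSeq gene span of 4977 bases, so its TPM may be understated. MYH6 (ENSDARG00000079564), a sarcomere gene, was at rank 293 by TPM and at rank 59 by CPM, before lyz at rank 86. Also by CPM, COTL1 stayed at rank 18 and cmlc1 was at rank 162. A gene without a symbol, with an implied length of 71 bases, went from rank 3 by TPM to rank 421 by CPM.

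**Figure D1:**
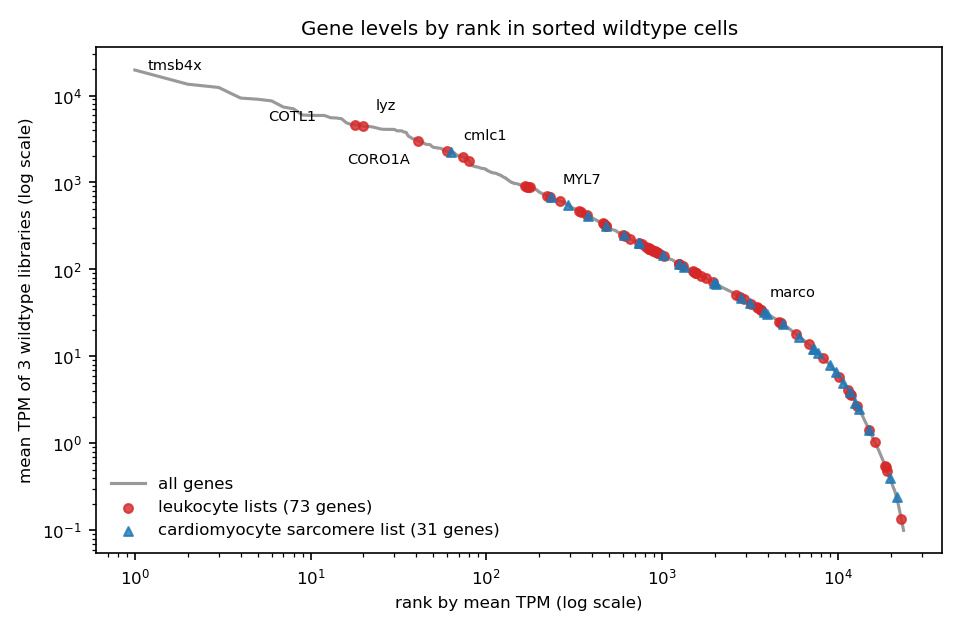
Mean TPM over the 3 wildtype libraries (y axis, log scale) against rank (x axis, log scale). The grey line is all genes at 0.1 TPM or above, red circles are members of the leukocyte lists and blue triangles members of the cardiomyocyte sarcomere list. COTL1 and lyz stand at ranks 18 and 20 by TPM, before cmlc1 at rank 63 and MYL7 at rank 232. By CPM the sarcomere gene MYH6 (ENSDARG00000079564), at rank 59, came before lyz, at rank 86.

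MYL7 (ENSDARG00000019096), whose promoter drives the reporter, was expressed in every library but was not near the top. It had 15299, 13253 and 6754 counts in replicates 1, 2 and 3, which is 1085, 621 and 345 TPM, a mean of 684 ± 374 TPM (SD, n = 3). Replicate 1 was the highest and replicate 3 the lowest, with replicate 2 between them. Cells were gated on this promoter, so a MYL7 level was selected for. No library of unsorted cells is described here, so this level cannot show how far the sort enriched heart cells. Of 31 members on the sarcomere list, 24 found an identifier, which gave 32 genes. The titin genes ttna and ttnb were among those that found none under the names used, and are not in the sum. Of the 32 genes, 28 (87.5%) had at least 1 TPM in every library, against 52.4% of all genes. At 100 TPM in every library there were 8 (25.0%), against 4.32%. Its median gene lay at 31.5 TPM.

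The light chain gene cmlc1 was the most abundant sarcomere gene, with 3197, 1852 and 1636 TPM in replicates 1, 2 and 3. MYH6 (ENSDARG00000079564), a myosin heavy chain that forms the thick filament, had 969, 371 and 321 TPM, and myh6 (ENSDARG00000090637) had 217, 59.8 and 67.8 TPM. The name table gives these 2 identifiers the same symbol in different case, and which chamber each stands for was not settled here. Replicate 1 lay above both other libraries in each of these genes by at least 1.5-fold. In the thin filament, the actin gene ACTC1 (ENSDARG00000057911) had 655, 300 and 286 TPM in replicates 1, 2 and 3. TNNT2, the troponin that ties the complex to tropomyosin, had 233, 128 and 78.4 TPM, and tnnc1a, the calcium sensor of the filament, had 330, 158 and 115 TPM. The tropomyosin gene tpm4a averaged 317 ± 119 TPM and actc1a, another actin gene, 246 ± 91.1 TPM (SD, n = 3 each). These genes had the same order of libraries as MYL7. MYBPC3, the cardiac myosin binding protein C, was lower, with 30.7 ± 18.3 TPM, and MYH7 (ENSDARG00000079782), another myosin heavy chain, had 23.5 ± 8.56 TPM (SD, n = 3 each). UNC45B and SMYD1 (ENSDARG00000091253), which act in myosin assembly, averaged 68.7 ± 24.5 and 69.9 ± 21.7 TPM (SD, n = 3 each).

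Genes of calcium cycling and conduction were expressed at lower levels than the filament genes. Of 26 members on the list, 18 found an identifier, which gave 23 genes, and pln was among those that found none. Of the 23 genes, 16 (69.6%) had at least 1 TPM in every library, against 52.4% of all genes. The median gene lay at 5.46 TPM. The calcium pump gene atp2a2a, which refills the sarcoplasmic reticulum, had 126, 68.4 and 70.7 TPM in replicates 1, 2 and 3. CASQ2, the calcium buffer of that store, had 83.5, 37.4 and 41.0 TPM, and RYR2, its release channel, had 43.2, 7.89 and 6.73 TPM. SLC8A1 (ENSDARG00000013422), the sodium-calcium exchanger, had 39.2, 12.1 and 14.2 TPM. In each of these the level of replicate 1 stood above those of replicates 2 and 3, which lay close together. CACNA1C, the L-type calcium channel, and HCN4 (ENSDARG00000061685), a pacemaker channel, were at 3.46 ± 3.84 and 1.11 ± 1.29 TPM (SD, n = 3 each), where the SD exceeds the mean.

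Transcription factors of heart development were present at low levels apart from HOPX. Of 28 matched genes, 24 (85.7%) had at least 1 TPM in every library, against 52.4% of all genes. The median gene lay at 7.96 TPM. HOPX, a small homeodomain protein without DNA binding of its own, was the highest of them, with 151, 246 and 222 TPM in replicates 1, 2 and 3, so here replicate 1 was the lowest. NKX2-5, a homeodomain factor of early heart cells, had 89.7, 36.0 and 38.1 TPM. HAND2, a basic helix-loop-helix factor needed for the heart fields, had 47.9, 22.8 and 35.2 TPM, and GATA5, a zinc finger factor of heart and endoderm, had 33.1, 22.9 and 18.8 TPM. MEF2C (ENSDARG00000009418), which acts on muscle genes, averaged 39.9 ± 6.81 TPM, nkx2.7 17.9 ± 5.77 TPM, and TBX20, a T-box factor of the heart tube, 13.1 ± 5.23 TPM (SD, n = 3 each). TBX5, a T-box factor of heart and fin fields, was low, with 2.16, 0.638 and 0.441 TPM, and ISL1, a marker of later-added heart progenitors, had 4.48 ± 1.76 TPM (SD, n = 3). The relatives gata4 and gata6 were not analysed here.

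The natriuretic peptide genes, secreted products of heart muscle, spread widely. For nppb the levels were 1039, 622 and 188 TPM in replicates 1, 2 and 3, and for nppa 140, 92.2 and 41.7 TPM. Both had the same order of libraries as MYL7. Together with the myosin heavy chains above and other chamber genes, 17 in all, they summed to 2502, 1242 and 703.9 TPM. BMP4, a growth factor of the heart tube, averaged 33.6 ± 12.7 TPM and BMP10 3.61 ± 1.74 TPM (SD, n = 3 each).

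By the median gene, in TPM, the lists that mark leukocytes stood higher than the sarcomere list. The pan-leukocyte, macrophage and neutrophil lists held 75 genes together, of which 67 (89.3%) had at least 1 TPM in every library and 36 (48.0%) at least 100 TPM in every library, against 4.32% of all genes. Of these genes, 37 ranked among the first 1000 of the table, against 8 of the 32 sarcomere genes, 5 of 33 epidermal, 3 of 22 erythroid, 2 of 41 skeletal muscle, 0 of 40 neural and 0 of 22 endothelial genes. The median leukocyte gene lay at 143 TPM. All lists of this report were chosen with earlier results of these data known. The shares of their genes at a given level, here and in the other paragraphs, are therefore description only. Several members, such as COTL1 and ARPC1B, a subunit of the actin branching complex, are also used by other cells. Genes used as leukocyte markers are given next, though not all of them are confined to blood. The list sums below keep COTL1 and ARPC1B unless stated.

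Of genes shared by all white blood cells, CORO1A, an actin regulator of leukocytes, had 1923, 2451 and 2465 TPM in replicates 1, 2 and 3. SPI1 (ENSDARG00000000767), the PU.1 transcription factor that directs myeloid fate, had 247, 250 and 243 TPM, a spread of 3.52 TPM (SD, n = 3). The receptor phosphatase gene ptprc, which encodes CD45, had 116, 128 and 99.3 TPM. By TPM these levels were close in the 3 libraries, unlike those of the sarcomere genes. Further down the list, rac2, a GTPase of neutrophil movement, averaged 472 ± 76.1 TPM, the integrin gene itgb2 176 ± 15.8 TPM, and LCP1, an actin bundling protein known as L-plastin, 90.4 ± 35.9 TPM (SD, n = 3 each). In all, 27 of 29 pan-leukocyte genes (93.1%) had at least 1 TPM in every library, and 13 (44.8%) at least 100 TPM. Among all genes the shares were 52.4% and 4.32%. By TPM their median coefficient of variation was 0.175, where that of the sarcomere genes was 0.506. After TMM scaling, which sets libraries by the bulk of their genes, 24 of 27 pan-leukocyte genes compared were lowest in replicate 1. Among all genes compared it was 6475 of 16390. The list then summed to 8841, 13354 and 14958.5 TPM in replicates 1, 2 and 3, and the sarcomere list to 7205, 4673.5 and 4308 TPM.

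**Figure D2:**
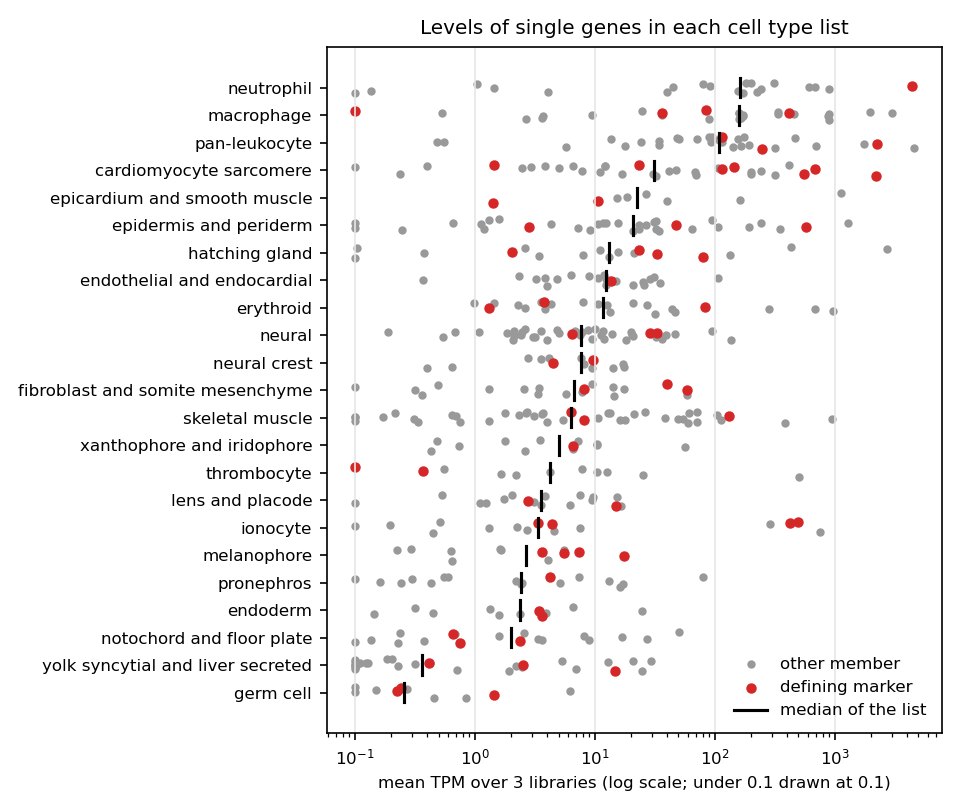
Mean TPM of every gene (points, x axis, log scale) on each of 23 cell type lists (y axis), with the lists ordered by the median of their genes (black bars). Red points are the defining markers of a list, and values under 0.1 TPM are drawn at 0.1. The neutrophil, macrophage and pan-leukocyte lists have medians of 164, 160 and 109 TPM, and the sarcomere list comes next at 31.5 TPM.

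Of 26 macrophage genes, 14 (53.8%) had at least 100 TPM in every library, against 4.32% of all genes. MPEG1 (ENSDARG00000055290), a pore-forming protein of macrophages, had 342, 361 and 559 TPM in replicates 1, 2 and 3, and IRF8, the factor that sets macrophage over neutrophil fate, had 329, 340 and 348 TPM. The lysosomal protein gene cd68 averaged 887 ± 102 TPM, and cxcr3.2, a chemokine receptor of macrophages, 160 ± 4.39 TPM (SD, n = 3 each). MFAP4 (ENSDARG00000090783) had 2148, 2817 and 4056 TPM; genes of the mfap4 family are used as macrophage markers in zebrafish. The scavenger receptor gene marco was lower and uneven, with 76.7 TPM in replicate 3, against 17.2 and 16.3 TPM in replicates 1 and 2. Another of the 3 identifiers matched as MPEG1, ENSDARG00000043093, had 203 TPM in replicate 3, against 38.9 and 10.5 TPM in replicates 1 and 2. Complement genes of mature tissue macrophages were low, with 0.534 ± 0.305 TPM for c1qa, 3.62 ± 3.98 TPM for c1qb and 2.69 ± 1.94 TPM for c1qc (SD, n = 3 each). The marker csf1ra found no identifier in the table under the names used.

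Genes of the neutrophil list were present beside them, though the defining markers mpx and cpa5 found no identifier under the names used and are not in the sum. Lysozyme, lyz, had 2900, 6123 and 4262 TPM in replicates 1, 2 and 3, and held 52.8% of the summed level of the list. CEBPA, a factor of granulocyte formation, had 570, 725 and 545 TPM. The gelatinase gene MMP9 averaged 201 ± 20.2 TPM, mmp13a, a collagenase, 183 ± 78.6 TPM, and npsn, a granule protease gene of neutrophils, 314 ± 155 TPM (SD, n = 3 each). EPX (ENSDARG00000019521) had 110, 293 and 257 TPM in replicates 1, 2 and 3. Its human-style name is that of a peroxidase of eosinophils and does not tell which zebrafish gene is meant. Whether it is mpx was not settled here, so mpx may have been measured under this name. For lyz, npsn, mmp13a and EPX, replicate 1 was the lowest and replicate 2 the highest. NCF1, a subunit of the phagocyte oxidase, had another order, with 1299 TPM in replicate 3, against 465 and 298 TPM in replicates 1 and 2. Since lyz marks myeloid cells and NCF1 phagocytes, the sum of the list does not tell neutrophils from macrophages.

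Summed over each list, the pan-leukocyte genes took 10507, 12928 and 13001 TPM in replicates 1, 2 and 3, the macrophage genes 8534, 9628 and 13348 TPM and the neutrophil genes 6061, 10360 and 8740 TPM. The sarcomere genes took 8563, 4524 and 3744 TPM in the same libraries. The log2 ratio of the 75 leukocyte genes to the 32 sarcomere genes was 1.55, 2.86 and 3.23 in replicates 1, 2 and 3, a mean of 2.55 (SD 0.88, n = 3), so the leukocyte sum was the larger in 3 of 3 libraries. In replicate 1 the macrophage list and the sarcomere list were within 1% of each other. The macrophage list as matched holds 6 of the 12 mfap4 family genes measured, and leaves out mfap4.11 and mfap4.8 among others. All 12 summed to 16465 TPM in replicate 1, above the sarcomere list, so this near tie depends on the matching of names. The sarcomere sum in turn leaves out ttna and ttnb, among other members without an identifier. A sum depends on how many genes a list holds and on its highest member: without COTL1 the pan-leukocyte mean was 7543 TPM, and without lyz the neutrophil mean was 3958 TPM, against 3382 TPM for the sarcomere genes without cmlc1. By mean CPM the sarcomere list stood 3rd of 23 cell type lists and the neutrophil list 4th. The pan-leukocyte and macrophage lists were 1st and 2nd by the mean on both scales. In replicate 1 the sarcomere list had 9838 CPM, against 10450.5 for pan-leukocyte, 5286 for macrophage and 3822 for neutrophil genes. In replicates 2 and 3 it had 5129 and 4323 CPM, against 6411 and 8507 for macrophage and 6559 and 6101 for neutrophil genes. In bulk RNA, more cells of a type and more RNA per cell cannot be told apart, so these sums are not shares of cells.

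**Figure D3:**
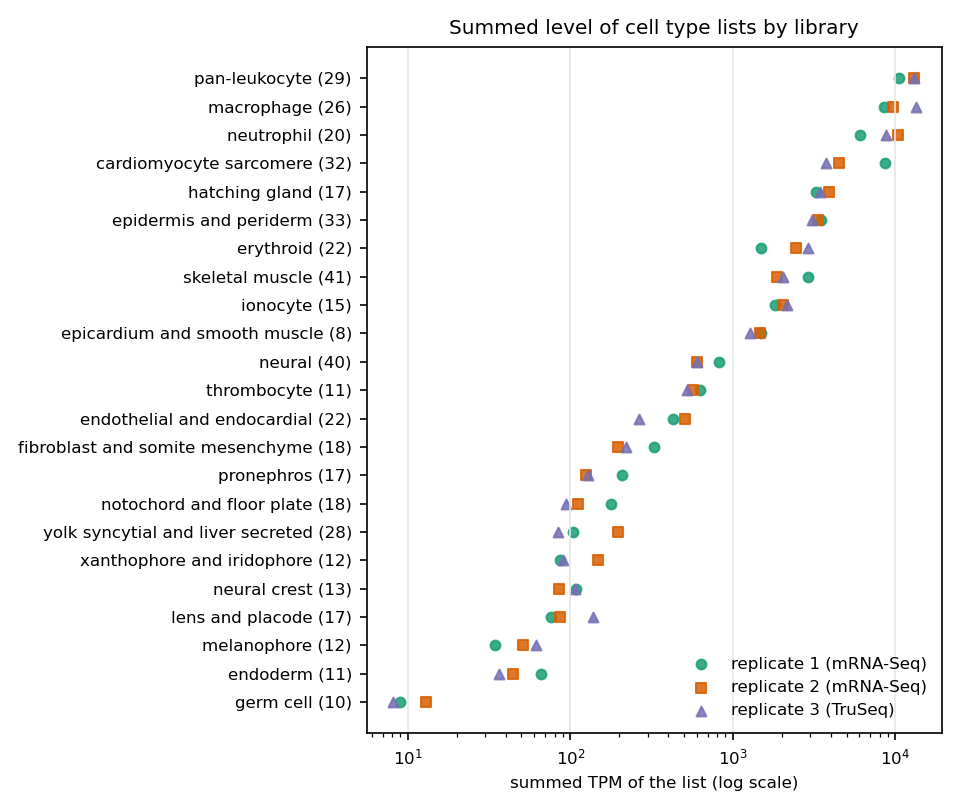
Summed TPM (x axis, log scale) of each cell type list, with the number of its genes in brackets, in replicate 1 (circles), replicate 2 (squares) and replicate 3 (triangles). Lists are ordered by their mean, with the 3 leukocyte lists at the top, between 6061 and 13348 TPM. The sarcomere list, at 8563, 4524 and 3744 TPM in replicates 1, 2 and 3, is above the macrophage and neutrophil lists in replicate 1. The macrophage list as matched holds 6 of the 12 mfap4 family genes measured.

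Red blood cell genes were expressed at an intermediate level, mostly through globins. The embryonic globin genes hbbe3 and hbae3 had 523, 1165 and 1238 TPM and 368, 675 and 1030 TPM in replicates 1, 2 and 3. Replicate 1 was the lowest for both. UROD, an enzyme of heme synthesis that other cells also use, averaged 282 ± 37.3 TPM, alas2, the red cell form of the first enzyme of that pathway, 27.4 ± 10.4 TPM, and gata1a, the master factor of red cells, 1.31 ± 1.11 TPM (SD, n = 3 each). The list summed to 1493, 2431 and 2892 TPM, a sum that leaves out the embryonic globins hbbe1 and hbbe2, which found no identifier under the names used. Of 11 thrombocyte genes, 7 (63.6%) had at least 1 TPM in every library, near the 52.4% of all genes. The median gene lay at 4.24 TPM. The highest was f13a1b, a coagulation factor subunit gene, which held 88.6% of the list sum of 574 ± 53.7 TPM (SD, n = 3). The defining marker itga2b had 1, 0 and 0 counts in replicates 1, 2 and 3, and mpl, the thrombopoietin receptor gene, had 3, 38 and 2 counts.

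Endothelial and endocardial genes were detected, at a lower level than sarcomere genes. Of 22 genes, 21 (95.5%) had 1 TPM or more in every library, against 52.4% of all genes. At 100 TPM in every library there were 0, where the share of all genes was 4.32%. The median gene lay at 12.5 TPM, against 31.5 TPM for the sarcomere list. The defining markers kdrl and fli1a found no identifier under the names used and are not in these values. The vascular cadherin gene cdh5 had 18.8, 18.3 and 3.65 TPM in replicates 1, 2 and 3. NFATC1, a factor of endocardial cells, had 35.8, 26.4 and 13.6 TPM, etsrp, which starts the endothelial programme, 33.9, 51.7 and 19.7 TPM, and TIE1, a vascular receptor, 9.98, 20.7 and 6.72 TPM. Replicate 3 was the lowest for each of these. Summed over the list they took 428, 505 and 265 TPM, which is under the sum of the sarcomere genes in every library. Among genes of the epicardium and smooth muscle, TAGLN (ENSDARG00000033466), an actin binding protein that many cells use, held 80.3% of the sum of 1406 ± 122 TPM (SD, n = 3). The defining epicardial factors TCF21 and TBX18 were at 10.7 ± 6.17 and 1.41 ± 0.241 TPM (SD, n = 3 each).

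Skin and hatching gland genes were also present. The simple keratin gene krt8 had 1444, 1251 and 1194 TPM in replicates 1, 2 and 3, and krt4, a keratin gene of the outer skin layer, 488, 640.5 and 596 TPM. TP63, the factor of basal skin cells, was at 4.2, 2.33 and 1.96 TPM. The adhesion gene epcam averaged 194 ± 67.4 TPM and cldnb, a tight junction gene, 95.1 ± 3.12 TPM (SD, n = 3 each). The list summed to 3461, 3319 and 3064 TPM. Of its 33 genes, 5 (15.2%) were at 100 TPM or more in every library, against 4.32% of all genes. The even sums hide genes that differed. Of 29 compared, 6 were at least 2-fold lower in replicate 1 than in both other libraries (0.854% of all genes), and 1 was at least 2-fold higher (8.64% of all genes). After TMM scaling these counts were 7 (1.51% of all genes) and 0 (4.12% of all genes). Genes of the hatching gland, an embryonic organ whose cells secrete the enzymes that dissolve the egg shell, gave a sum of 3521 ± 335 TPM (SD, n = 3), but CD63, a vesicle protein of many cells, held 77.7% of it. The cathepsin gene ctslb, a marker of the gland, had 65.5, 69.3 and 105 TPM, and the hatching enzyme gene he1.1 had 25.0, 25.6 and 48.9 TPM. Replicate 3 was the highest for both. On the ionocyte list the sum, 1996 ± 174 TPM (SD, n = 3), came mostly from vacuolar ATPase genes, which phagocytes use as well, while the defining ionocyte factors foxi3a and foxi3b were at 3.37 ± 1.34 and 4.43 ± 2.03 TPM (SD, n = 3 each).

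Skeletal muscle genes were led by actins: ACTA1 (ENSDARG00000055618) had 1335, 755 and 783 TPM in replicates 1, 2 and 3. Early heart muscle in vertebrates also uses skeletal actins, so this gene does not separate the tissues. The muscle creatine kinase gene ckma had 111, 119 and 167 TPM, and the fast myosin light chain gene MYL1 (ENSDARG00000014196) 88.6, 105 and 122 TPM. Both were highest in replicate 3, opposite to the order of the cardiac light chains. The myogenic factors MYOD1 and MYOG, which start skeletal muscle and are not used by the heart, were at 6.32 ± 1.81 and 8.22 ± 2.68 TPM (SD, n = 3 each). Of 41 genes, 3 (7.32%) had at least 100 TPM in every library, near the 4.32% of all genes.

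Neural genes were low, with a list sum of 826, 603 and 601 TPM over 40 genes and a median gene of 7.74 TPM. ELAVL3, an RNA binding protein of neurons, had 53.4, 16.2 and 16.9 TPM in replicates 1, 2 and 3, and SOX2, a factor of neural progenitors, 36.8, 23.3 and 38.4 TPM. The remaining lists each summed to less. Means were 247 TPM for fibroblast and somite mesenchyme genes, 153 TPM for pronephros, 128 TPM for notochord and floor plate, 128 TPM for yolk and liver products, 108 TPM for xanthophore and iridophore genes, 100.2 TPM for neural crest, 100.0 TPM for lens and placode, 48.9 TPM for melanophore, 48.8 TPM for endoderm and 9.98 TPM for germ cell genes. Their markers were correspondingly low: SOX10, a neural crest factor, was at 9.65 ± 1.60 TPM, CDH17, a cadherin of the pronephric duct, at 4.28 ± 1.40 TPM, and DDX4, the germ cell helicase known as vasa, at 0.244 ± 0.146 TPM (SD, n = 3 each).

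Genes of cell programmes rather than cell types were measured beside these lists. The 13 mitochondrially encoded genes summed to 59700.3, 66059 and 58790.3 TPM in replicates 1, 2 and 3. Genes of protein folding and transport in the endoplasmic reticulum summed to 12451, 12712 and 13499 TPM, with 23 of 31 (74.2%) at 100 TPM or more in every library, against 4.32% of all genes. Among them HSP90B1, a chaperone, had 2143, 2087 and 2661 TPM, PPIB, a prolyl isomerase, 1929, 2005 and 2015 TPM, and SEC61A1 (ENSDARG00000021669), the channel into the reticulum, 1041, 1166 and 1066 TPM. XBP1, a factor of the secretory programme that is also on the hatching gland list, had 420, 475 and 414 TPM. By TPM the median coefficient of variation of the list was 0.128, where it was 0.241 for expressed genes. After TMM scaling the list summed to 10477, 13131 and 15532 TPM, and 24 of 31 genes were lowest in replicate 1, where 6475 of all 16390 genes were. Translation factors summed to 12786, 13516 and 14494 TPM, cell cycle genes to 2262, 2125 and 2163 TPM and glycolysis genes to 2986, 3178.5 and 3792 TPM.

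The libraries were compared by counting genes at least 2-fold apart from both others on log2(TPM + 1), over the 16390 genes with a mean of at least 1 TPM. With 1 library against 2 there is no test. Replicate 1 was higher for 1416 genes (8.64%) and lower for 140 (0.854%). Replicate 2 was higher for 132 genes (0.805%) and lower for 162 (0.988%), and replicate 3 was higher for 291 (1.78%) and lower for 449 (2.74%). The median gene of all was 0.29 higher on the log2 scale in replicate 1 than the mean of the other libraries, and TMM scaling, which sets libraries by the bulk of their genes, brought this to -0.04. Changes are therefore given on both scales. After TMM scaling, replicate 1 was higher for 676 genes (4.12%), replicate 2 for 163 (0.995%) and replicate 3 for 442 (2.7%), and they were lower for 247 (1.51%), 138 (0.842%) and 295 genes (1.8%). Of all 16390 genes, 9792 were highest in replicate 1, 3901 in replicate 2 and 2697 in replicate 3, and after TMM scaling 5847, 4943 and 5600 in the same order.

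Sarcomere and calcium genes were higher in replicate 1. Of 29 sarcomere genes compared, 12 were at least 2-fold higher there than in both other libraries, where 8.64% of all genes were, and 26 were highest there, where 9792 of all 16390 genes were. Their median log2 difference from the mean of replicates 2 and 3 was 1.07, and 0.72 after TMM scaling, which left 5 of 29 at least 2-fold higher (4.12% of all genes) and 25 of 29 highest, where 5847 of all 16390 genes were. Of 18 calcium and conduction genes, 8 were at least 2-fold higher in replicate 1 and 18 were highest there, and 4 and 16 after TMM scaling. Of 26 heart transcription factors, 3 were at least 2-fold higher there (8.64% of all genes), and 1 after TMM scaling (4.12% of all genes), shares near those of all genes. The 69 leukocyte genes went the other way: their median in replicate 1 was -0.28 against the mean of the others, where the median of all genes was 0.29, and 0 were at least 2-fold higher there. After TMM scaling this median was -0.62, where that of all genes was -0.04. By TPM 33 of 69 were lowest in replicate 1, where 2582 of all 16390 genes were. After TMM scaling it was 57 of 69, where 6475 of all 16390 genes were. Some other lists did the same on that scale, with 24 of 31 endoplasmic reticulum genes and 16 of 20 translation factors lowest there, so this was not particular to leukocyte genes. Of genes with a symbol and a mean of at least 5 TPM, the furthest apart in replicate 1 was LIN28B, an RNA binding protein of early development, with 96 counts in replicate 1, against 8 counts each in replicates 2 and 3.

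**Figure D4:**
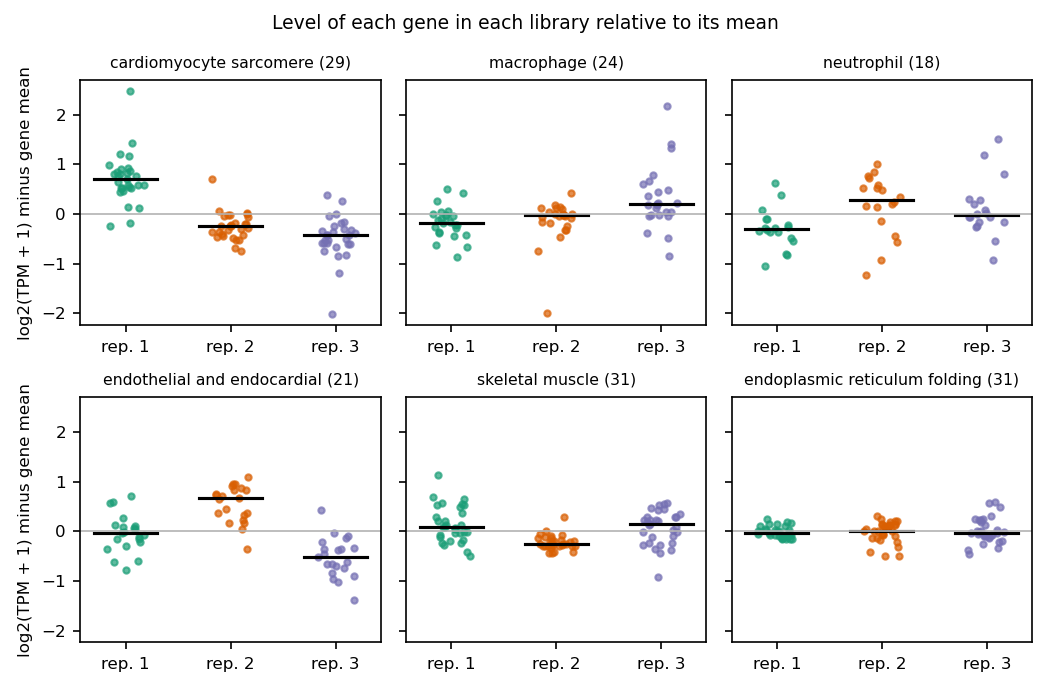
Log2(TPM + 1) of each gene minus its mean over the 3 libraries (y axis), by replicate (x axis), for 6 lists with the number of genes in brackets; black bars are medians. Sarcomere genes lie highest in replicate 1, macrophage genes in replicate 3, endothelial genes in replicate 2, and genes of endoplasmic reticulum folding lie near 0 in each by TPM; after TMM scaling the median difference of these from the mean of the others was -0.44 in replicate 1 and 0.26 in replicate 3.

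Vessel genes and some plasma protein genes were higher in replicate 2. Of 21 endothelial genes, 5 were at least 2-fold higher in replicate 2 than in both other libraries, where 0.805% of all genes were, 16 were highest there, where 3901 of all 16390 genes were, and the median difference was 1.01. After TMM scaling it was 7 of 21 (0.995% of all genes), 18 highest and 1.09. An example outside the list is pecam1a, an adhesion molecule of endothelium, with 17.1 TPM in replicate 2, against 3.91 and 3.58 TPM in replicates 1 and 3. Of 28 yolk and liver genes measured, 5 had at least 1 TPM in every library. The 11 compared had a mean of at least 1 TPM, a limit that a gene can pass through replicate 2 alone. The filter thus favours genes high there, and the count that follows is description only. Of these 11 genes, 6 were at least 2-fold higher, on either scale. They include apoa1a, an apolipoprotein gene, with 36.7 TPM in replicate 2, against 2.42 and 4.89 TPM in replicates 1 and 3, and fetub, a plasma protein gene, with 14.5 TPM, against 0.596 and 1.07 TPM. Of 31 skeletal muscle genes, 20 were lowest in replicate 2, and 16 after TMM scaling, where 4719 and 4683 of all 16390 genes were, but 0 were at least 2-fold lower there (0.988% of all genes).

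Some leukocyte genes were higher in replicate 3. Of 69 leukocyte genes, 7 were at least 2-fold higher in replicate 3 than in both other libraries (1.78% of all genes), and 12 after TMM scaling (2.7% of all genes). Macrophage genes were highest in replicate 3 for 16 of 24, and for 21 of 24 after TMM scaling, where 2697 and 5600 of all 16390 genes were. SAA2, an acute phase protein, had 65.5 TPM in replicate 3, against 2.95 and 0.162 TPM in replicates 1 and 2. The gene il1fma, named as a member of the interleukin 1 family, had 138 TPM, against 17.6 and 12.5 TPM, and nfe2l2b, a stress response factor gene, 182 TPM, against 20.1 and 2.66 TPM. Of genes with a symbol and a mean of at least 5 TPM, the furthest below both others was actc1c, an actin gene, with 5.76 TPM in replicate 3, against 175 and 147 TPM in replicates 1 and 2. Genes under 200 bases made up 86 of the 291 genes higher in replicate 3, and 473 of the 16390 genes compared, and took 10.16% of TPM there, against 5.10% and 6.09% in replicates 1 and 2. The part of the kit in these differences was not tested.

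**Figure D5:**
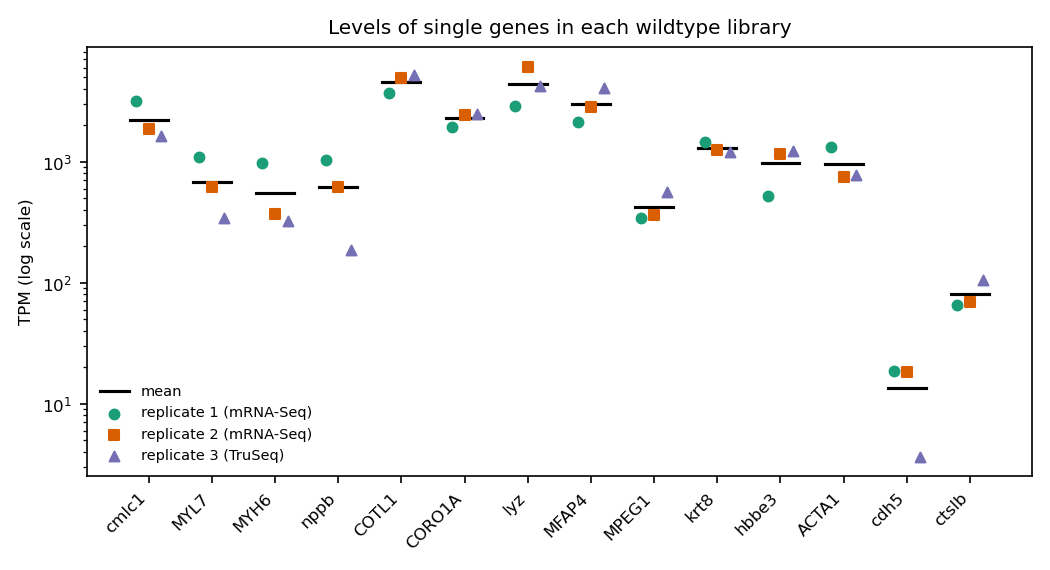
TPM (y axis, log scale) of 14 single genes (x axis) in replicate 1 (circles), replicate 2 (squares) and replicate 3 (triangles), with the mean as a bar; MYH6, MFAP4, MPEG1 and ACTA1 are the identifiers given in the text. The cardiac genes cmlc1, MYL7, MYH6 and nppb are highest in replicate 1, while COTL1, CORO1A and lyz are lowest there.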

How the data were processed

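RNA of sorted tg(myl7::gfp) cells at 24 hpf was described for the 3 libraries labelled Wildtype. Counts per Ensembl gene were deposited by the authors as raw whole numbers, per the file headers and the values. RPKM values deposited by the authors are proportional to the count plus 1 over a gene length. CASAVA 1.7.0, BWA, DESeq and the build Zv9 are listed, without their roles, in the submitters' processing notes. How reads were counted, and whether by strand, is not given in the sources used here. Reads of close paralogues (actins, myosins, mfap4, globins) or overlapping genes may have been split.

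The ratio of count plus 1 to RPKM gave each gene's relative length, from which TPM was computed from the counts. For 371 of 13443 genes with a RefSeq span (2.76%) this length exceeded the span by over 5%, so their TPM may be understated. The span includes introns, so a length under it can also be too long. This check therefore does not give the share of genes whose TPM is understated. Symbols matched 19189 of 27456 identifiers (69.9%). Symbols in capitals are human-style names that do not tell which zebrafish paralogue is meant.

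There is 1 group, so no test was made. Genes with at least 1 TPM in every library were called expressed. TMM factors were 1.111, 0.993 and 0.907 for replicates 1 to 3 (edgeR 4.0.16). The biological coefficient of variation of an intercept-only edgeR fit over the 14388 expressed genes was 0.308, used as a description. DESeq2 1.42.0 size factors were an alternative, and scripts were tested on simulated data. The variance of a gene over the libraries was a median 13.2 times that of counting alone.

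The members and the 31 gene lists were chosen with earlier results of these data known, so the shares set against all genes are description only. Names were widened to all accepted symbols, and 1 wrong match was dropped, after levels had been seen. The rule for named genes takes MYL7, the highest genes, each list's defining markers and 4 highest members, and per library the 5 genes furthest apart in each direction. Other genes, among them list members beyond the 4 highest and EPX, were chosen after their values were seen. The values of 1 list member are not reported here, though the counts and sums of its list include it.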

Additional observations from a re-analysis of the deposited data

How the results depend on the processing

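The order of the neutrophil and sarcomere lists turns with CPM (5494 against 6430 CPM, and 8387 against 5611 TPM). After TMM scaling the median log2 difference of replicate 1 from the mean of the others changed sign for all genes (-0.04 against 0.29), skeletal muscle (-0.21 against 0.14) and the hatching gland (-0.27 against 0.09). Among list sums averaged over the 3 libraries, the deposited RPKM, TMM and DESeq2 size factors each moved none by more than its SD over libraries. Such a mean hides shifts of single libraries. With TMM the pan-leukocyte sum of replicate 1 went from 10507 to 8841 TPM, where the SD over libraries was 1419 TPM. With CPM, means were 6735 (macrophage), 5494 (neutrophil), 1065 (erythroid), 710.1 (endothelial) and 5298 (epidermis). Without the highest member, TPM means were 785.1 (hatching gland), 7497 (macrophage), 3958 (neutrophil), 7543 (pan-leukocyte), 1297 (erythroid), 1312 (skeletal muscle), 539.9 (neural) and 1985 (epidermis). Epidermis was 3497 TPM with mitochondrially encoded genes left out of the total, and 3530.4 TPM with genes under 200 bases left out, an alternative added after the data were seen. Leaving out each replicate in turn gave 4134 to 6544 TPM for the sarcomere list, 9081 to 11488 for macrophage, 7400.2 to 9550 for neutrophil, 11718 to 12965 for pan-leukocyte, 2.21 to 3.05 for the log2 ratio of leukocyte to sarcomere genes, 14630 to 15256 expressed genes and 0.261 to 0.340 for the biological coefficient of variation.

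With a minimum of 5 TPM, 9351 genes were expressed. Replicate 1 was higher for 676 genes with TMM and 3413 at 1.5-fold, and lower for 251 with a pseudocount of 0.1, 247 with TMM and 366 at 1.5-fold. Replicate 2 was higher for 205 with that pseudocount, 273 with no filter and 416 at 1.5-fold, and lower for 337 with that pseudocount and 543 at 1.5-fold. Replicate 3 was higher for 442 with TMM and 602 at 1.5-fold, and lower for 920.0 with that pseudocount, 295 with TMM and 1611 at 1.5-fold. The cause of these shifts was not tested beyond what each setting changes by construction. Levels under 1 TPM rest on few counts. No paired analysis was possible because a single group is described and replicate numbers only follow the order of deposit.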

Other observations

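Several abundant gene families were chosen after the ranking was seen. Their shares at 100 TPM are therefore above that of all genes by choice, and are given as description only. Genes of the mfap4 family, secreted fibrinogen-like proteins used as macrophage markers in zebrafish, summed to 16465, 16979 and 20469 TPM in replicates 1, 2 and 3. Of 12 measured, 10 had at least 100 TPM in every library, where 4.32% of all genes did. The macrophage list above holds 6 of the 12. The most abundant of the family was mfap4.11, with 4779, 4749 and 4420.0 TPM, which stood at rank 17 of all genes. Close copies may share reads, so the split between members is uncertain while the sum is less so. Subunits of the vacuolar ATPase, the proton pump of lysosomes and other acidic compartments, summed to 6963, 8072 and 8835 TPM over 21 genes, of which 12 had at least 100 TPM in every library. The Arp2/3 complex, which branches actin filaments, summed to 6452, 7403 and 6919 TPM over 14 genes, with 10 at 100 TPM or more in every library.

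Other abundant genes chosen in the same way encode proteins of phagocytes. CEBPB, a factor of myeloid cells, had 845, 1056 and 1845 TPM in replicates 1, 2 and 3, and LTA4H, which makes leukotriene B4, had 799, 916 and 960.3 TPM. The lysozyme-like gene lygl1 had 756, 928 and 2118 TPM, and ctss2.1, a cathepsin S gene, 595, 849 and 623 TPM. Some genes known from activated macrophages, also chosen after their values were seen, were uneven. ACOD1, which makes itaconate, had 2631 TPM in replicate 3, against 954 and 381 TPM in replicates 1 and 2. GPR84, a receptor for medium-chain fatty acids, had 1172 TPM in replicate 3, against 413 and 208 TPM, and CARD9, an adaptor of innate immune signalling, had 1082 TPM, against 674 and 424 TPM. For these genes replicate 3 was the highest and replicate 2 the lowest, the order also seen for NCF1, SAA2, il1fma and nfe2l2b. By TPM the general leukocyte genes SPI1 and ptprc did not follow it: SPI1 had 243 TPM in replicate 3, against 247 and 250 TPM in replicates 1 and 2. This contrast depends on the scale. Of 27 pan-leukocyte genes, 9 were highest in replicate 3 by TPM and 14 after TMM scaling, where 2697 and 5600 of all 16390 genes were. On the macrophage list, 16 of 24 genes were highest in replicate 3 by TPM and 5 were lowest there. Among all 16390 genes these counts were 2697 and 9089. One of the 5 was HMOX1, with 347 TPM in replicate 3, against 546 and 491 TPM in replicates 1 and 2. Replicate 3 is the single TruSeq library of the 3.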
